A study of Homo sapiens with 6 samples.

Results

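The genes described here are 10 neighbours of SFTPB on human chromosome 2 (CAPG, MAT2A, GGCX, VAMP8, RNF181, TMEM150A, C2orf68, USP39, ATOH8 and ST3GAL5), out of 26485 gene symbols counted by RNA-seq. They have a start site within about 260 kb of the site in SFTPB to which sgRNA #2 directs dCas9-KRAB. They are not every counted gene in that range: 6 other symbols there, 5 of them with too few counts to test, are given further down. The cells were A549, a human lung carcinoma line. All samples had been infected with lentiviral vectors that carry dCas9-KRAB and rat Nkx2-1, selected by puromycin for the former and by GFP sorting for the latter, with Nkx2-1 driven by the PGK promoter. The libraries came from 3 samples transfected with sgRNA #2 (sgSFTPB#2) and 3 transfected with the non-targeted sgRNA control (sgNeg). dCas9-KRAB and NKX2-1 were thus shared by both groups, and the comparison is between the sgRNAs. The study describes its triplicates as biologically independent, whereas the labels give only a replicate number. The p-values thus measure the spread between these samples, except in a fit that blocks on the replicate number, described below.

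dCas9-KRAB joins a Cas9 that cannot cut DNA to the KRAB domain of a zinc finger protein. The KRAB domain binds TRIM28 (KAP1), which recruits histone deacetylases and the H3K9 methyltransferase SETDB1, so that repressive chromatin is laid down around the site to which the sgRNA binds. Such chromatin can extend beyond the site, and for this reason the expression of neighbouring genes is examined when a regulatory element is targeted by CRISPRi. SFTPB encodes surfactant protein B, a secreted protein that is required for breathing and is a target of the lung transcription factor NKX2-1. The question addressed here is whether the transcripts of the 10 neighbours differed between cells with sgRNA #2 and cells with the sgRNA control.

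The target of sgRNA #2 is shown because all distances below are measured from it. It matched chromosome 2 exactly once, at chr2:85668529-85668551 on the minus strand of GRCh38, which is also the strand of SFTPB. In the GENCODE 44 annotation this lies in the first intron of the longer SFTPB transcripts, 341 bp from the canonical start site, which is that of a shorter transcript. The 10 bases next to the PAM are in capitals, and the last 3 bases are the PAM.
sgRNA #2: gggatgggagGGGAACACCCagg

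The 143 bases around the target (chr2:85668469-85668611, minus strand) are shown with the target and PAM in capitals. They hold the NKX2-1 core motif CAAG 2 times, at 46 and 33 bases before the first base of the target, and its reverse complement CTTG 0 times.
sgRNA #2 window: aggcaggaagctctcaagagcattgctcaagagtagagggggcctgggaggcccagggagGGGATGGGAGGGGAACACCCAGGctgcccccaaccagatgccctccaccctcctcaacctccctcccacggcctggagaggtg

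The start sites of the members were searched for partial copies of this target, that is, for the PAM-proximal bases of sgRNA #2 followed by NGG within 1000 bp of the canonical start site on either strand. The longest match was that of VAMP8, with 7 bases, at chr2:85578318-85578340 on the plus strand and 743 bp from the start site. It had 13 mismatches over the 20 bases of the guide. Among 1518 genes of chromosome 2 scanned in the same way, 2.11% held a match of 7 bases or more. USP39, the member with the nearest start site, held a match of 5 bases at chr2:85616701-85616723 on the plus strand, a length reached by 44.8% of these genes. The other members held matches of 3 to 5 bases, and no member held the 8 or more bases found at 0.791% of the genes. In the 2 matches printed here, capitals mark the bases that match the PAM-proximal end of the guide.
VAMP8 partial match: ctccatttcccccAACACCCagg
USP39 partial match: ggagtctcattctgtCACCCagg

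The core motif CTTG or CAAG, searched on both strands, was present in at least 1 promoter window (250 bases before to 50 after a start site, RefSeq on GRCh38.p14) of each of the 9 members that have such a window. C2orf68 has no window in the table used. This is a short motif, and 86% of 35116 windows held it at least once.

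The 6 libraries held 6047554 to 7584611 counts on genes, and reads that the counting assigned to no feature made up 19.7 to 21.1%. A count of 3, taken as the floor of detection for counting error only, was 0.396 to 0.496 CPM (counts scaled to library size). SFTPB, the targeted gene, had 2683, 2877 and 3155 counts with the sgRNA control and 40, 42 and 49 with sgRNA #2, a log2 fold change of -5.96 (SE 0.101; edgeR quasi-likelihood test, adjusted p = 5.56e-17). Of the epithelial markers KRT8, KRT18, KRT19, CDH1 and EPCAM, 4 of 5 reached 10 counts in a library, with a summed level of 2372 to 2959 CPM with the sgRNA control and 2178 to 2677 CPM with sgRNA #2. CDKN2A and CDKN2B, which are deleted in A549, were at 0 in every library. Of 3 leukocyte markers, PTPRC and CD3E were at 0 in every library, and CD68 brought the sum to 62.1 to 66.7 CPM with the sgRNA control and 65.2 to 68.3 CPM with sgRNA #2. The 3 endothelial markers summed to at most 0.394 CPM, with CDH5 at 0 throughout. The 3 fibroblast markers summed to 6.52 to 9.08 CPM and 6.16 to 8.71 CPM, with COL1A2 at 0 throughout. The cytotoxic lymphocyte markers GNLY, NKG7 and CD8A summed to 1.71 to 4.30 CPM and 1.5 to 1.83 CPM, with 2 of 3 reaching 10 counts in a library. GNLY is itself a neighbour of the sgRNA #2 site, described further down. Alone it was at 0.526 to 2.55 CPM with the sgRNA control and 0.5 to 0.853 CPM with sgRNA #2. As these are bulk libraries, fewer cells that express a gene and less RNA per cell cannot be told apart.

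None of the 10 neighbours passed the test for a change with sgRNA #2. The cut-offs for a call were a size of 1 or more on the log2 scale and an adjusted p under 0.05, and 0 of 10 members met both, against 0.719% of the 13356 genes tested (0.689% lower and 0.0299% higher). Without the fold change cut-off, 0 of 10 members had an adjusted p under 0.05 in the edgeR quasi-likelihood test, against 2.69% of tested genes. At an unadjusted p under 0.05 the count was 1 of 10 (VAMP8, lower) in edgeR, against 11.1% of tested genes. With DESeq2 it was 0 of 10, against 7.61% of tested genes. VAMP8 reached the counts needed for the test through its control libraries, where it is higher, as given below. In a fit that blocks on the replicate number, described below with the pairs of libraries, 1 of 10 members (ST3GAL5, higher by less than 2-fold) had an adjusted p under 0.05, against 10.0% of tested genes (3.97% higher and 6.06% lower).

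The fitted log2 fold changes of the members ran from -0.77 (VAMP8) to 0.24 (RNF181) with a median of 0.07, and the median over all tested genes was 0.00. Their median size without regard to sign was 0.08, against 0.09 for all tested genes, and 7 of 10 lay above zero, against 51.1% of tested genes. The intervals state what size of change these libraries leave possible. The 95% interval of 8 of 10 members lay within 1.5-fold in either direction, against 77.7% of tested genes, and that of 9 of 10 within 2-fold, against 93.1%. RNF181 and VAMP8 were outside the 1.5-fold bounds, and for VAMP8 the interval also crossed 2-fold. The lowest interval bound of any member, -1.48 for VAMP8, was far above the interval of SFTPB, which ran from -6.18 to -5.75.

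**Figure D1:**
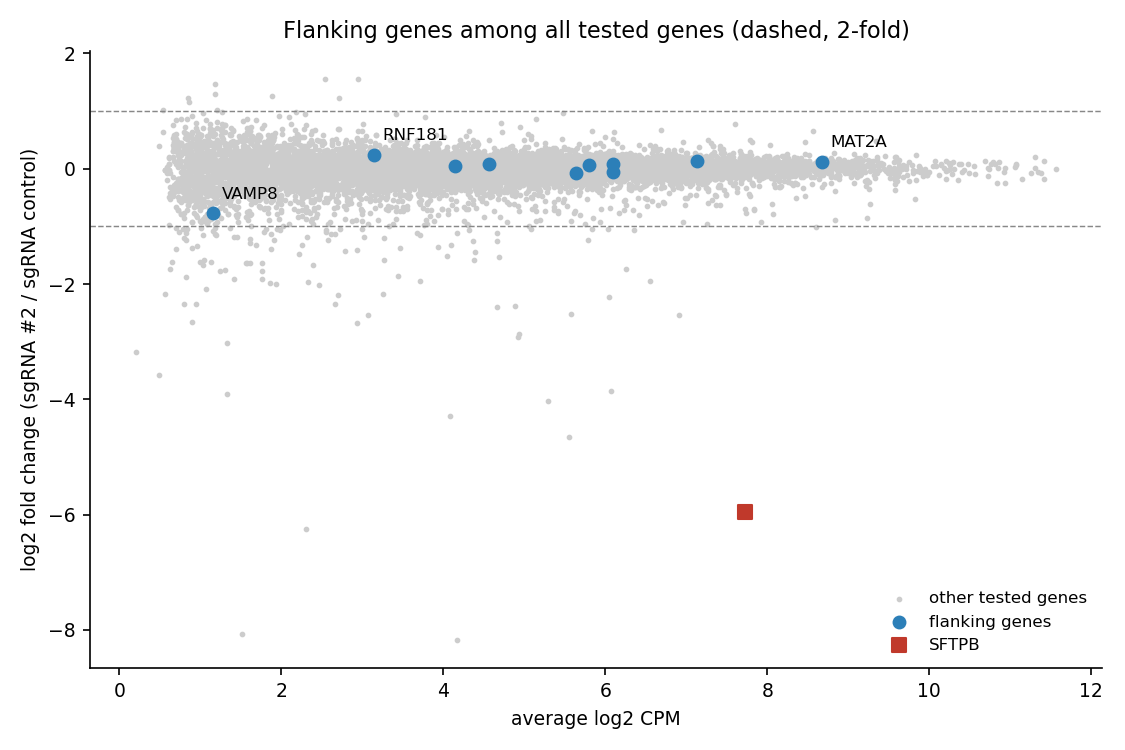
Log2 fold change (sgRNA #2 over sgRNA control, vertical axis) against average log2 CPM (horizontal axis) for every tested gene (grey), the 10 flanking genes (blue) and SFTPB (square), with 2-fold changes dashed. The flanking genes lie between -0.77 (VAMP8, the least abundant of them) and 0.24 (RNF181), and SFTPB lies at -5.96.

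USP39 is a catalytically inactive relative of the ubiquitin-specific proteases that is needed for assembly of the U4/U6.U5 tri-snRNP in pre-mRNA splicing. It lies at chr2:85602856-85649283 on the plus strand, and its canonical start site, 52.4 kb from the sgRNA #2 site, was the nearest among the members. Another annotated USP39 start is 23.6 kb away and the end of the gene 19.3 kb away, so no other member came closer to the site by these measures. The counts of USP39 were 441, 492 and 525 with the sgRNA control and 515, 447 and 363 with sgRNA #2. After scaling to library size, the control libraries lay close together at 69.0 to 70.2 CPM and the sgRNA #2 libraries spread around them, with 1 above and 2 below all controls. The log2 fold change was -0.05 (SE 0.0806; edgeR adjusted p = 0.887), and the 95% interval allowed a change between -14.4% and 8.37%.

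RNF181 is a RING-type E3 ubiquitin ligase and the member with the highest fitted log2 fold change in the fit of all 6 libraries. It lies at chr2:85595725-85597708 on the plus strand with its start 72.8 kb from the site. Its counts were 37, 59 and 69 with the sgRNA control and 61, 68 and 53 with sgRNA #2. The lowest value, 5.89 CPM, was that of sgRNA control replicate 1, and the other 5 libraries lay between 8.36 and 10.2 CPM, so the groups overlapped. Its fitted log2 fold change of 0.24 had an SE of 0.187 (edgeR adjusted p = 0.735), with an interval from -0.16 to 0.63. Without sgRNA control replicate 1 it was 0.08, below MAT2A at 0.16 and CAPG at 0.14.

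The 3 metabolic enzymes among the neighbours were all measured with 376 or more counts in each library. MAT2A, which makes S-adenosylmethionine, the methyl donor of the cell, was the most abundant member. It lies at chr2:85539168-85545281 on the plus strand, 129.4 kb from the site. Its counts were 2613, 2740 and 2861 with the sgRNA control and 3120, 2635 and 2655 with sgRNA #2. In CPM these were 416, 388 and 376 against 444, 396 and 442, so 2 of the 3 sgRNA #2 libraries were above all controls and the groups still overlapped. Between the groups the log2 fold change was 0.12 (SE 0.0677; edgeR adjusted p = 0.567), with an interval from -1.63% to 19.9%.

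GGCX, the gamma-glutamyl carboxylase that uses vitamin K to activate clotting factors and related proteins, lies at chr2:85544720-85561532 on the minus strand, 107.0 kb from the site. Its counts were 386, 511 and 500 with the sgRNA control and 466, 545 and 376 with sgRNA #2. The groups overlapped, with replicate 2 of sgRNA #2 the highest library at 81.9 CPM and replicate 1 of the control the lowest at 61.5 CPM. For GGCX the log2 fold change was 0.08 (SE 0.0971; edgeR adjusted p = 0.861).

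ST3GAL5, the sialyltransferase that makes the ganglioside GM3, lies on the higher-coordinate side of SFTPB at chr2:85837120-85905199 on the minus strand, 220.4 kb from the site. Its counts were 745, 937 and 1112 with the sgRNA control and 919, 1027 and 929 with sgRNA #2. In CPM the control libraries were at 119, 133 and 146 and the sgRNA #2 libraries at 131, 154 and 155, so 2 of 3 exceeded all controls and 1 lay among them. The log2 fold change was 0.14 (SE 0.084; edgeR adjusted p = 0.598), with an interval from -2.44% to 24.7%. It was 0.07 without control replicate 1, and 0.22 without control replicate 3 or without sgRNA #2 replicate 1. Blocking on the replicate number gave a log2 fold change of 0.15 (SE 0.0509) and an adjusted p of 0.0434.

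VAMP8, TMEM150A and CAPG act at membranes and on the actin cytoskeleton. VAMP8 is an R-SNARE of late endosomes, secretory granules and autophagosomes that drives fusion of these membranes. It lies at chr2:85561562-85582031 on the plus strand, 91.0 kb from the site. Its counts were 15, 21 and 15 with the sgRNA control and 8, 12 and 8 with sgRNA #2. In CPM these were 2.39, 2.98 and 1.97 against 1.14, 1.80 and 1.33, so every sgRNA #2 library was below every control library. Groups that did not overlap in this direction were found in 8.83% of tested genes. The log2 fold change was -0.77 (SE 0.337), with an interval from -64.2% to -3.98%. The unadjusted p was 0.0355, reached by 6.80% of tested genes in the lower direction, and the adjusted p was 0.378 (edgeR). DESeq2 gave an unadjusted p of 0.122 and an adjusted p of 0.941. The exact permutation test gave a two-sided p of 0.10, the smallest that 3 libraries against 3 allow. VAMP8 passed the filter on low counts through its 3 control libraries and 1 sgRNA #2 library, and at this depth a change of its size did not pass the adjusted test.

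TMEM150A is a regulator of the plasma membrane phosphatidylinositol 4-kinase (PI4KA) complex. It lies at chr2:85598547-85603196 on the minus strand, 65.8 kb from the site. Its counts were 103, 135 and 119 with the sgRNA control and 111, 140 and 97 with sgRNA #2. Levels were 15.6 to 19.1 CPM and 15.8 to 21.0 CPM, and the groups overlapped. For TMEM150A the log2 fold change was 0.05 (SE 0.141; edgeR adjusted p = 0.941).

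CAPG, a gelsolin-family protein that caps the barbed ends of actin filaments, is the most distant member, at chr2:85394753-85418432 on the minus strand and 258.2 kb from the site. Its counts were 154, 155 and 164 with the sgRNA control and 173, 172 and 129 with sgRNA #2. The control libraries were at 21.6 to 24.5 CPM, with 2 of the sgRNA #2 libraries just above them (24.6 and 25.8 CPM) and 1 just below (21.5 CPM). For CAPG the log2 fold change was 0.09 (SE 0.114; edgeR adjusted p = 0.872).

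ATOH8 is the only member that encodes a sequence-specific transcription factor, of the basic helix-loop-helix family. It is the nearest member on the higher-coordinate side, at chr2:85751344-85791383 on the plus strand and 85.5 kb from the site. Its counts were 263, 431 and 446 with the sgRNA control and 358, 400 and 353 with sgRNA #2. In CPM the controls spread from 41.9 to 61.1, and the sgRNA #2 libraries, at 50.9 to 60.1, lay within that range. For ATOH8 the log2 fold change was 0.06 (SE 0.116; edgeR adjusted p = 0.913).

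C2orf68 encodes a protein whose function is not well described. It lies at chr2:85605254-85612066 on the minus strand, 56.5 kb from the site. Its canonical start and that of USP39 are 4120 bp apart in a divergent arrangement. C2orf68 also lies within the span of USP39, and a RefSeq promoter window of USP39 (chr2:85611855-85612154, plus strand) contains the C2orf68 start. The counts of C2orf68 were 291, 397 and 378 with the sgRNA control and 313, 338 and 295 with sgRNA #2. Each sgRNA #2 library was below the control mean, 44.5 to 50.8 CPM against 50.8 ± 5.04 CPM (SD, n = 3), and the groups overlapped. The log2 fold change was -0.08 (SE 0.093; edgeR adjusted p = 0.848), with an interval from -17.4% to 8.43%.

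**Figure D2:**
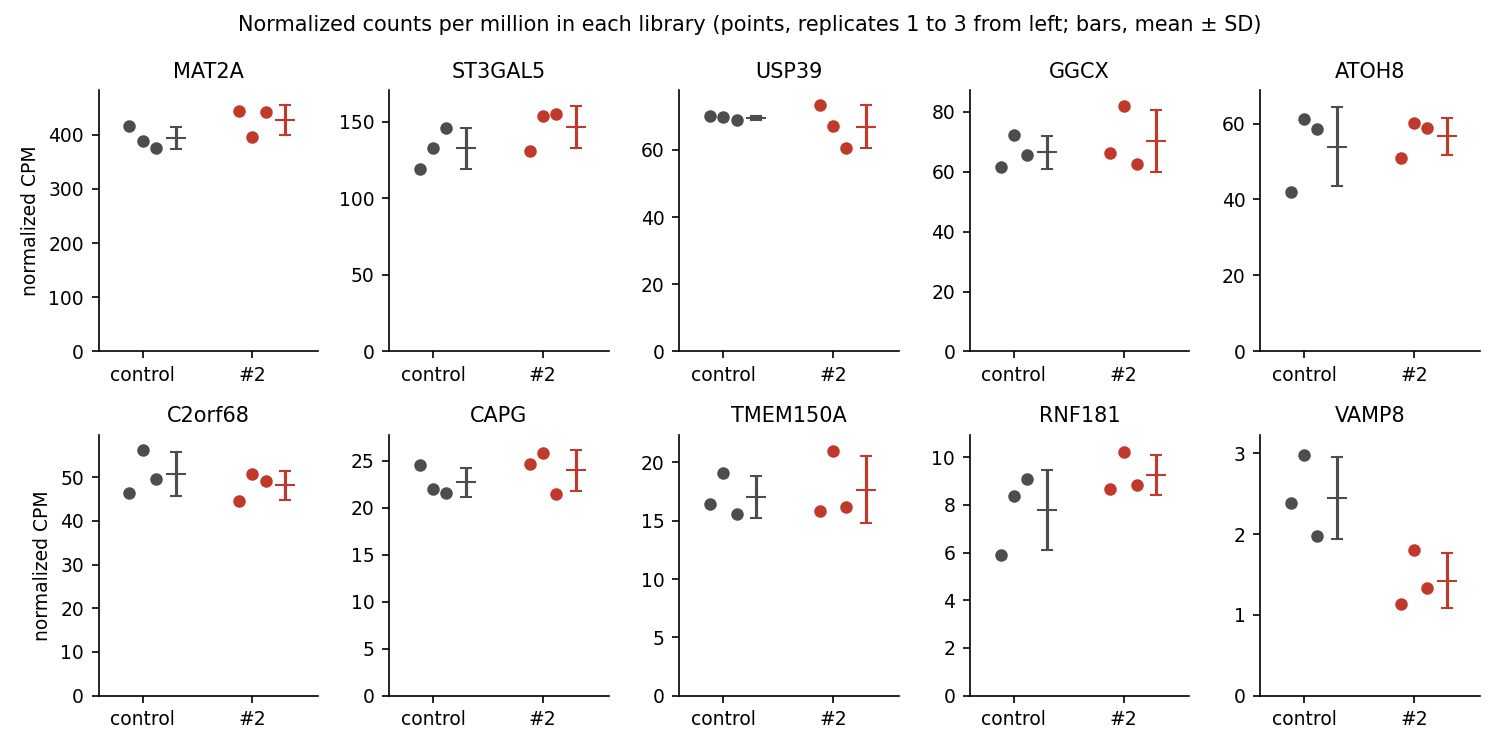
Normalized CPM (vertical axes, from 0) of each flanking gene in the 3 sgRNA control and 3 sgRNA #2 libraries, with replicates 1 to 3 from left in each group and bars for mean ± SD. The groups overlap for every gene except VAMP8, whose sgRNA #2 libraries (1.14 to 1.80 CPM) lie below its control libraries (1.97 to 2.98 CPM).

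Some of these genes overlap each other on opposite strands, and the strand setting of the counting is not given in the sources used here. USP39 overlaps C2orf68 and TMEM150A, GGCX overlaps MAT2A, ATOH8 overlaps MIR6071, VAMP8 overlaps RN7SL126P, and ST3GAL5 overlaps ST3GAL5-AS1. Without strand, reads in the overlaps cannot be assigned to 1 of the 2 genes. RNF181 and CAPG overlap no annotated gene.

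By distance from the sgRNA #2 site, the lowest log2 fold change was that of VAMP8 at 91.0 kb, and the next lowest were those of C2orf68 and USP39, the members with the nearest start sites, both with intervals that cross zero. The 4 members with start sites under 75 kb away (USP39, C2orf68, TMEM150A and RNF181) had log2 fold changes of -0.05, -0.08, 0.05 and 0.24. On the higher-coordinate side, ATOH8 and ST3GAL5 were at 0.06 and 0.14. Spearman's rho between distance and log2 fold change was 0.54 over the 10 genes, and between distance and the size of the change 0.48. These values are descriptions over genes that share the same 6 libraries, and genes are not independent replicates. The standard error was smaller for abundant members, with a rho of -0.89 between mean CPM and the standard error.

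**Figure D3:**
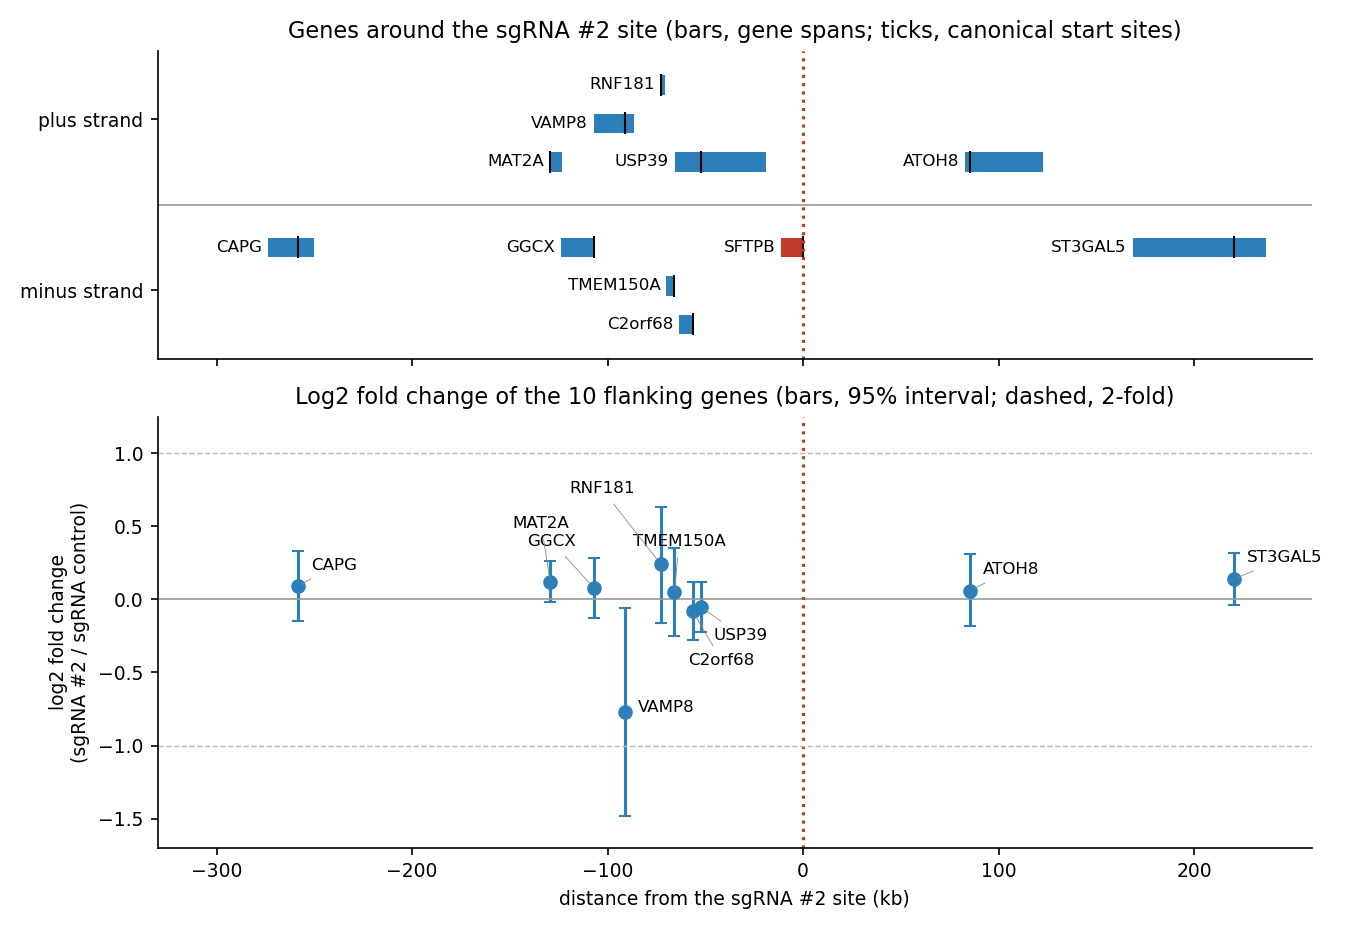
Upper panel, spans of the 10 flanking genes and SFTPB by distance in kb from the sgRNA #2 site, with ticks at canonical start sites. Lower panel, log2 fold change (sgRNA #2 over sgRNA control) of each flanking gene at its start site with its 95% interval, and 2-fold changes dashed; all intervals except that of VAMP8 cross zero.

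Levels can be compared between genes only per length. Per kilobase of exon in the control libraries (RPKM, calculated from the counts and GENCODE 44 exon lengths), MAT2A was highest at 87.7 ± 4.57 RPKM (SD, n = 3), above 97.6% of tested genes and near SFTPB itself at 101 ± 2.41 RPKM. USP39 followed at 17.6 ± 0.153 RPKM. CAPG (9.38 ± 0.664 RPKM), C2orf68 (8.73 ± 0.867 RPKM) and ST3GAL5 (8.13 ± 0.845 RPKM) came next, and their libraries overlapped from each to the next. A lower group of 4 genes, RNF181, ATOH8, TMEM150A and GGCX, lay between 5.91 and 5.0 RPKM, again with overlap from each to the next. VAMP8 was lowest, at 2.73 ± 0.563 RPKM, above 27.2% of tested genes. The libraries did not overlap between MAT2A and USP39, USP39 and CAPG, ST3GAL5 and RNF181, or GGCX and VAMP8. With sgRNA #2 SFTPB was at 1.64 ± 0.313 RPKM, close to the 1.59 ± 0.382 RPKM of VAMP8, whereas MAT2A was at 95.3 ± 6.09 RPKM. These levels depend on the exon lengths used, and GENCODE 44, which lists 69 transcripts for ST3GAL5, may not be the annotation used for counting.

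Across genes, the deviations of libraries from their group means were correlated between libraries that share a replicate number, so the members were also compared pair by pair. MAT2A was higher with sgRNA #2 in 3 of 3 pairs, with log2 differences of 0.09, 0.03 and 0.23. ST3GAL5 was also higher in 3 of 3 pairs, with differences of 0.14, 0.22 and 0.08. VAMP8 was lower in 3 of 3, with differences of -1.07, -0.72 and -0.57, and C2orf68 was lower in 3 of 3, by -0.06, -0.15 and -0.02. The other 6 members differed in sign between pairs or had a difference that rounds to 0.00. In the edgeR fit with the replicate block, the adjusted p was 0.0434 for ST3GAL5, 0.0562 for MAT2A, 0.159 for VAMP8 and 0.622 for C2orf68. That fit took the spread of every gene fully from a trend over all genes. Its p values therefore do not measure the spread of each gene itself between the samples. The difference of ST3GAL5 in that fit, 0.15 on the log2 scale, was far below the 2-fold cut-off.

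**Figure D4:**
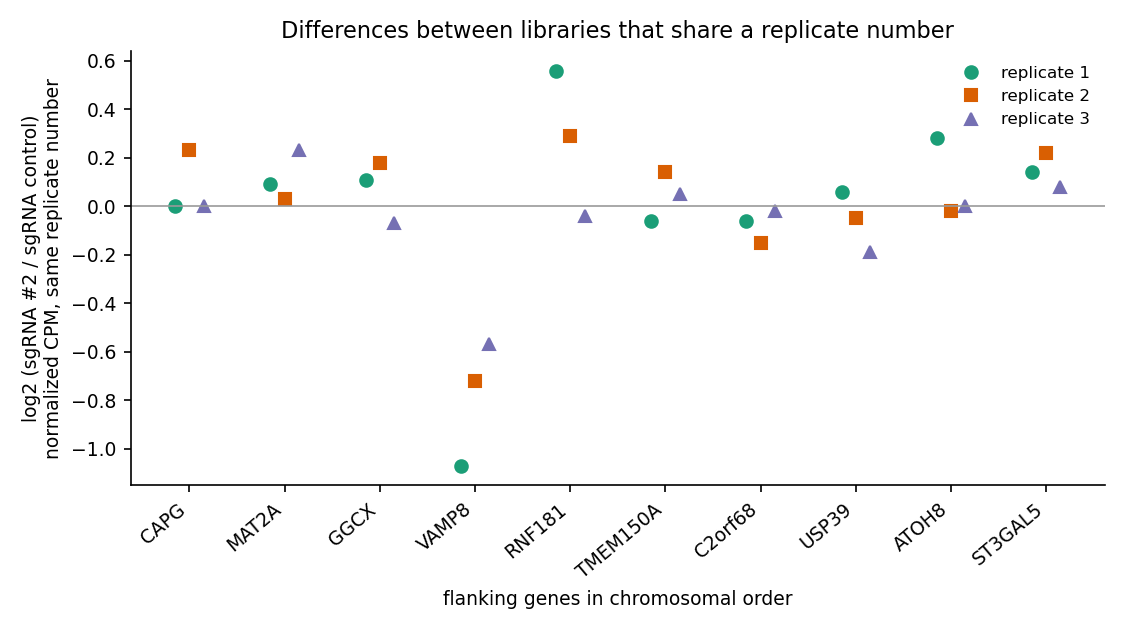
Log2 difference in normalized CPM between the sgRNA #2 and sgRNA control libraries that share a replicate number (vertical axis) for each flanking gene in chromosomal order (horizontal axis), with 1 symbol per replicate number. All 3 points lie above zero for MAT2A and ST3GAL5 and below zero for VAMP8 and C2orf68, and those of VAMP8 lie lowest, from -1.07 to -0.57.

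The count tables hold 6 further symbols with a start site within 260 kb, apart from SFTPB. GNLY, the cytotoxic granule protein granulysin, has the nearest canonical start site among these symbols and the members, at 25.8 kb on the higher-coordinate side. Its counts were 16, 10 and 4 with the sgRNA control and 6, 5 and 3 with sgRNA #2, too low for the test by the filter used. Without a count filter its log2 fold change was -1.0 (SE 0.501; edgeR unadjusted p = 0.0453, adjusted p = 0.487). PARTICL, a non-coding RNA that starts next to MAT2A on the opposite strand, was the 1 of these symbols that passed the filter. It had 43, 58 and 57 counts with the sgRNA control and 59, 56 and 45 with sgRNA #2, a log2 fold change of 0.11 (SE 0.174; edgeR adjusted p = 0.898). VAMP5 (3, 1 and 0 against 1, 0 and 1 counts) and SH2D6 (1, 1 and 1 against 2, 2 and 4) were at or near the floor of 3 counts, and ST3GAL5-AS1 (3, 10 and 10 against 6, 7 and 5) was above it in 5 of 6 libraries. MIR6071 had 0 counts in all control libraries and 2, 1 and 1 with sgRNA #2, at or under that floor in both groups.

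Over the wider region, 11 of 16 symbols within 260 kb and 27 of 33 within 1 Mb were tested, SFTPB left out. In the edgeR fit without the replicate block, 0 passed both cut-offs or an adjusted p under 0.05. At an unadjusted p under 0.05 there were 2 of 27 within 1 Mb, both lower (VAMP8 and TCF7L1), against 6.80% of all tested genes in that direction, and 1 of 27 with DESeq2, against 7.61%. TCF7L1, a transcription factor of the Wnt pathway, starts 535.1 kb from the site. It had 27, 34 and 36 counts with the sgRNA control and 20, 22 and 12 with sgRNA #2, and the groups did not overlap. Its log2 fold change was -0.75 (SE 0.253; edgeR unadjusted p = 0.00853, adjusted p = 0.179), and with the replicate block the adjusted p was 0.0325. In that blocked fit, 1 of 27 genes within 1 Mb was lower at an adjusted p under 0.05 (TCF7L1) and 1 was higher (ST3GAL5). The shares of all tested genes were 6.06% lower and 3.97% higher. Of the 27 genes tested within 1 Mb, 2 were lower with sgRNA #2 without overlap, against 8.83% of all tested genes. On the same base, 3 of 27 were higher without overlap, against 6.77% of all tested genes. The 3 higher genes, all beyond 260 kb, were SNORD94 (9 to 13 counts per library), IMMT and MRPL35. Their log2 fold changes were 0.30, 0.10 and 0.13. They were chosen after their values were seen, and their adjusted p values were 0.844, 0.619 and 0.473 (edgeR). At the edge of the 260 kb range, CAPG at 258.2 kb was just inside with a log2 fold change of 0.09. The next counted start sites beyond the range were those of ELMOD3 (313.8 kb) and RETSAT (314.0 kb), with -0.01 and -0.04.

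**Figure D5:**
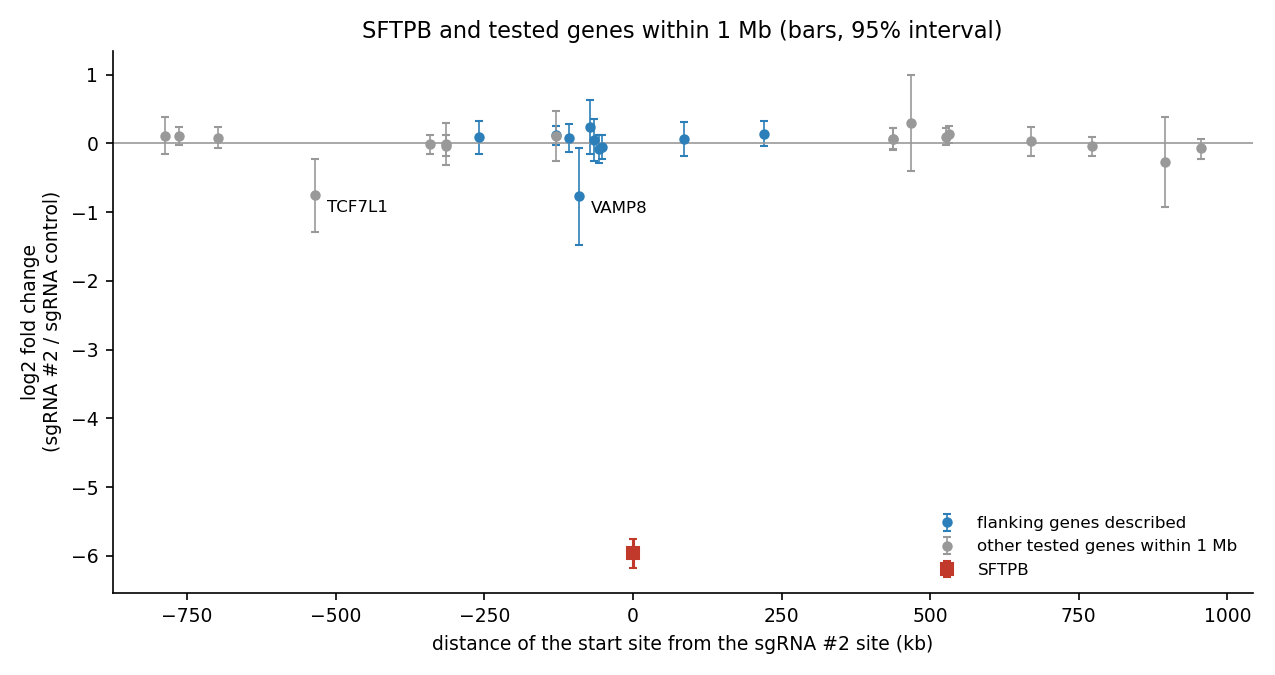
Log2 fold change with 95% interval (vertical axis) by distance of the start site from the sgRNA #2 site in kb (horizontal axis) for SFTPB (square), the 10 flanking genes (blue) and the other tested genes within 1 Mb (grey). SFTPB lies at -5.96, and VAMP8 (-0.77) and TCF7L1 (-0.75) are the lowest of the others.

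Genes that work with the members were described next, as 8 lists with 100 genes in all, of which 87 were tested. Of these, 1 passed both cut-offs (VIL1), against 0.719% of all tested genes, and 2 had an adjusted p under 0.05 in edgeR (VIL1 and PRPF6, both lower), against 2.69%. With DESeq2 the counts were 0 and 0, against 82 and 302 of all 13356 tested genes. With the replicate block, 10 of 87 had an adjusted p under 0.05, against 10.0% of all tested genes. The groups did not overlap for 7 of 87 in the lower direction and 4 of 87 in the higher, against 8.83% and 6.77% of all tested genes. The lists stand for themselves, since no protein or activity was measured.

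For GGCX, 9 of 14 genes of the vitamin K cycle and its carboxylated substrates were tested, with a median log2 fold change of -0.12 and 0 with an adjusted p under 0.05. For MAT2A, 14 of 18 genes of methionine and S-adenosylmethionine metabolism were tested, with a median of 0.03 and 0 with an adjusted p under 0.05. MAT1A, the liver-type homolog of MAT2A, was among the 4 untested, and is named after its values were seen. It had 7, 9 and 11 counts with the sgRNA control and 0, 0 and 0 with sgRNA #2, at least 2.79-fold lower against the floor of 3 counts per library, and without a count filter its edgeR adjusted p was 1.46e-05. The 13 untested genes of the 8 lists had 0 to 11 counts in a library. For ST3GAL5, 10 of 12 genes of ganglioside synthesis were tested, with a median of -0.05 and likewise 0. All 13 SNAREs of endosomes and autophagosomes listed for VAMP8, 8 of 9 genes of the PI4KA complex listed for TMEM150A, and all 7 partners and inhibitors of basic helix-loop-helix factors listed for ATOH8 were tested. Their medians were -0.03, 0.05 and -0.03, and 0 genes of these 3 lists had an adjusted p under 0.05. At an unadjusted p under 0.05, 9 of the 87 genes were lower and 2 were higher, against 6.80% and 4.35% of all tested genes, and 7 of 87 passed with DESeq2 in either direction, against 7.61%.

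For USP39, all 15 listed proteins of the U4/U6.U5 tri-snRNP were tested, with a median of 0.04. PRPF6, which bridges the U5 and U4/U6 particles, had 514, 541 and 611 counts with the sgRNA control and 462, 435 and 366 with sgRNA #2, and the groups did not overlap. It fell by 0.31 on the log2 scale (SE 0.0732; edgeR adjusted p = 0.0239), a change under 2-fold that had an adjusted p of 0.062 with DESeq2. Without sgRNA #2 replicate 1, 2 or 3 or control replicate 1 or 3, its edgeR adjusted p was 0.0751, 0.0642, 0.126, 0.0721 and 0.0873. The edgeR adjusted p of PRPF6 was 0.0339 without control replicate 2 and 1.74e-05 with the replicate block. It was 0.0109 to 0.0275 with the other count filters, RLE factors or total counts.

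For CAPG, 11 of 12 genes of the gelsolin family and of actin capping were tested, with a median of -0.02. VIL1, the microvillus protein villin, had 11, 27 and 15 counts with the sgRNA control and 6, 6 and 4 with sgRNA #2, and the groups did not overlap. Its log2 fold change was -1.62 (SE 0.419; edgeR adjusted p = 0.0478), and DESeq2 gave an adjusted p of 0.167. VIL1 passed the count filter only through its control libraries, where it is higher, so its call and the count of 1 gene past both cut-offs rest on a filter that this difference decides. Without sgRNA #2 replicate 1, 2 or 3, the edgeR adjusted p of VIL1 was 0.154, 0.112 and 0.131, and without any 1 control library it did not pass the count filter.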

How the data were processed

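The authors deposited 1 file of raw counts per library, with 1 row per gene symbol, made with HTSeq. The submitters' notes also name hg38, Trim Galore, FastQC, Bowtie2 2.3.3.1, SAMtools and Picard. The annotation and strand setting are not given in the sources used here. Counts were tested in R 4.3.3 with edgeR 4.0.16 (TMM, quasi-likelihood test, Benjamini-Hochberg adjustment) on 13356 of 26485 genes, those reaching 10 counts in 3 or more libraries. The study used DESeq2; here DESeq2 1.42.0 was an alternative, as were RLE factors, total counts, other count filters, the replicate block and leaving out each library. The script was tested on simulated data. The standard error was the log2 fold change over the square root of F. Intervals are 95%.

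Replicate numbers come from the sample titles. Same-numbered libraries correlated in their deviations from group means (0.304, 0.311 and 0.32), and differently numbered ones at -0.197 to -0.115, so blocked values are given where they change a call. The block fit had infinite prior degrees of freedom, against 13.0 without it. All p values given with the replicate block thus rest on the trend over genes and not on the spread of the gene itself. Libraries of a group differed by more than sampling noise (chi-square per degree of freedom 2.61 to 3.43).

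Positions are from GENCODE 44 (GRCh38; 24531 symbols matched, 1370 of them by an older symbol). Partial matches and motifs were searched in Python 3.11.15, and exact permutation tests used scipy 1.17.1. The sgRNA sequence is from the study's supplement, checked against the genome. The members and lists were chosen with earlier results of these data known. Genes named are all members, SFTPB, the counted symbols within 260 kb, those within 1 Mb with an unadjusted p under 0.05, and up to 3 genes per list with an adjusted p under 0.05. Outside this rule, ELMOD3 and RETSAT are named as next beyond the 260 kb range, CD68 as a marker, RN7SL126P as an overlapping gene, and SNORD94, IMMT, MRPL35 and MAT1A after their values were seen.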

Additional observations from a re-analysis of the deposited data

How the results depend on the processing

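The count of members that passed both cut-offs was 0 under every alternative run, also with an adjusted p under 0.10 and no fold change cut-off, and so were the counts of genes within 260 kb and 1 Mb, also with windows of 500 kb and 2 Mb. With the replicate block, the members with an adjusted p under 0.05 went from 0 to 1 (ST3GAL5), and the block changed no other member's call. Of 119 member values under alternatives, 112 kept their direction and their side of the threshold, 1 passed it (ST3GAL5 with the block) and 6 changed sign, all on leaving out 1 library. These were USP39 (0.01 without sgRNA #2 replicate 3), C2orf68 (0.00 without control replicate 2), TMEM150A (-0.10 without sgRNA #2 replicate 2 and -0.01 without control replicate 3), ATOH8 (-0.08 without control replicate 1) and GGCX (-0.05 without sgRNA #2 replicate 2). On leaving out each library in turn, USP39 ranged from -0.12 to 0.01, C2orf68 from -0.14 to 0.00, TMEM150A from -0.10 to 0.14, ATOH8 from -0.08 to 0.16 and GGCX from -0.05 to 0.15, and the adjusted p of these 5 genes was 0.547 or more under every alternative. RNF181 ranged from 0.08 to 0.36, ST3GAL5 from 0.07 to 0.22, MAT2A from 0.09 to 0.17 and CAPG from 0.03 to 0.16. VAMP8 stayed between -0.98 and -0.60, with adjusted p values of 0.159 to 0.941, and has no value with at least 10 counts in every library.

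Among the partner genes, the 1 called gene became 0 with DESeq2, with at least 10 counts in every library and with total counts only, 0 to 0 on leaving out a library, and 2 without a count filter (MAT1A is then tested). The 2 with an adjusted p under 0.05 became 0 with DESeq2, 1 with at least 10 counts in every library, 1 with total counts only, 5 without a count filter and 10 with the replicate block, and 0 to 1 on leaving out a library. The cause was not tested. No scaling alternative moved the median log2 fold change of all tested genes by more than 0.003. Among the members, VAMP8 and RNF181 had the lowest counts, 8 to 69 per library, and the widest intervals.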
